A study of Danio rerio with 10 samples.

Results

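A set of 42 transcripts, out of 16383 in the count table, was chosen from zebrafish embryos. It was nearly absent at 64 cells and from the cytosol at 256 cells, and present in nuclei at the 1000-cell and dome stages. The embryos were wild-type Danio rerio of the AB strain, with no genetic change or drug in any group. Pools of dechorionated embryos were taken at 64 cells, 256 cells and 1000 cells, at dome (a later blastula stage) and at shield (an early gastrula stage). Each pool was lysed and spun, which gave a nuclear pellet and a cytosolic supernatant. With 1 library for each of the 10 combinations of stage and fraction, no stage had a replicate. The pellet and the supernatant are crude fractions, and how pure they were was not analysed here.

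The 42 members were chosen by their level in CPM (counts per 1000000 counts of the library). They had at most 1 CPM in the nuclear and cytosolic 64-cell libraries and in the cytosolic 256-cell library. They had at least 5 CPM in the nuclear libraries at 1000 cells and at dome. Levels in these 5 libraries are therefore set by the choice and are given as descriptions. The other 5 libraries played no part in it: nuclear RNA at 256 cells, cytosolic RNA at 1000 cells, cytosolic RNA at dome, and both fractions at shield. They are not wholly separate from the choice, since the supernatant and the pellet of a stage came from 1 lysate, as the labels' protocols read.

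A fish embryo starts on RNA that the mother loaded into the egg, and its own genome is largely silent through the first cleavages. Transcription then begins in a few genes, the first wave, before the main wave of zygotic genome activation in the blastula. In zebrafish the earliest products are known to include the miR-430 microRNA precursors and genes for transcription factors and signalling proteins. A new transcript is made in the nucleus and is exported to the cytosol after processing. The files identify transcripts by Ensembl ID only, and the name tables used here matched 0 of the 16383 IDs. None of the 42 can therefore be tied to a gene, a function or a sequence here.

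The table counts transcripts, not genes. How reads were divided among overlapping models of a gene is not given in the sources used here, and counts per gene were not analysed. A member that is low in the early libraries of the choice is thus not shown to come from a gene that was silent at those stages. In whole-embryo lysates, fewer cells with a transcript and less of it per cell cannot be told apart. Totals ran from 5909037 to 14311969 counts per library, so 1 CPM stood for 5.91 to 14.3 counts and 3 counts for 0.21 to 0.508 CPM. Since the values are shares of each library, a nuclear/cytosolic ratio compares shares, not molecules per compartment.

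Members at the limits differed little from transcripts just outside them. In 1000-cell nuclei the lowest members had 5.09 CPM (39 counts), and the highest transcript that failed this limit alone had 4.96 CPM. In dome nuclei the lowest member had 5.27 CPM and the highest failing transcript 4.97 CPM. In the cytosolic 256-cell library the highest member had 0.953 CPM and the lowest failing transcript 1.06 CPM. Altogether 8335 transcripts were low in the 3 early libraries of the rule, and 75 of these had at least 5 CPM in 1000-cell nuclei. The 42 members are those of the 75 that were also at 5 CPM or more in dome nuclei, and the other 33 were not.

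**Figure D1:**
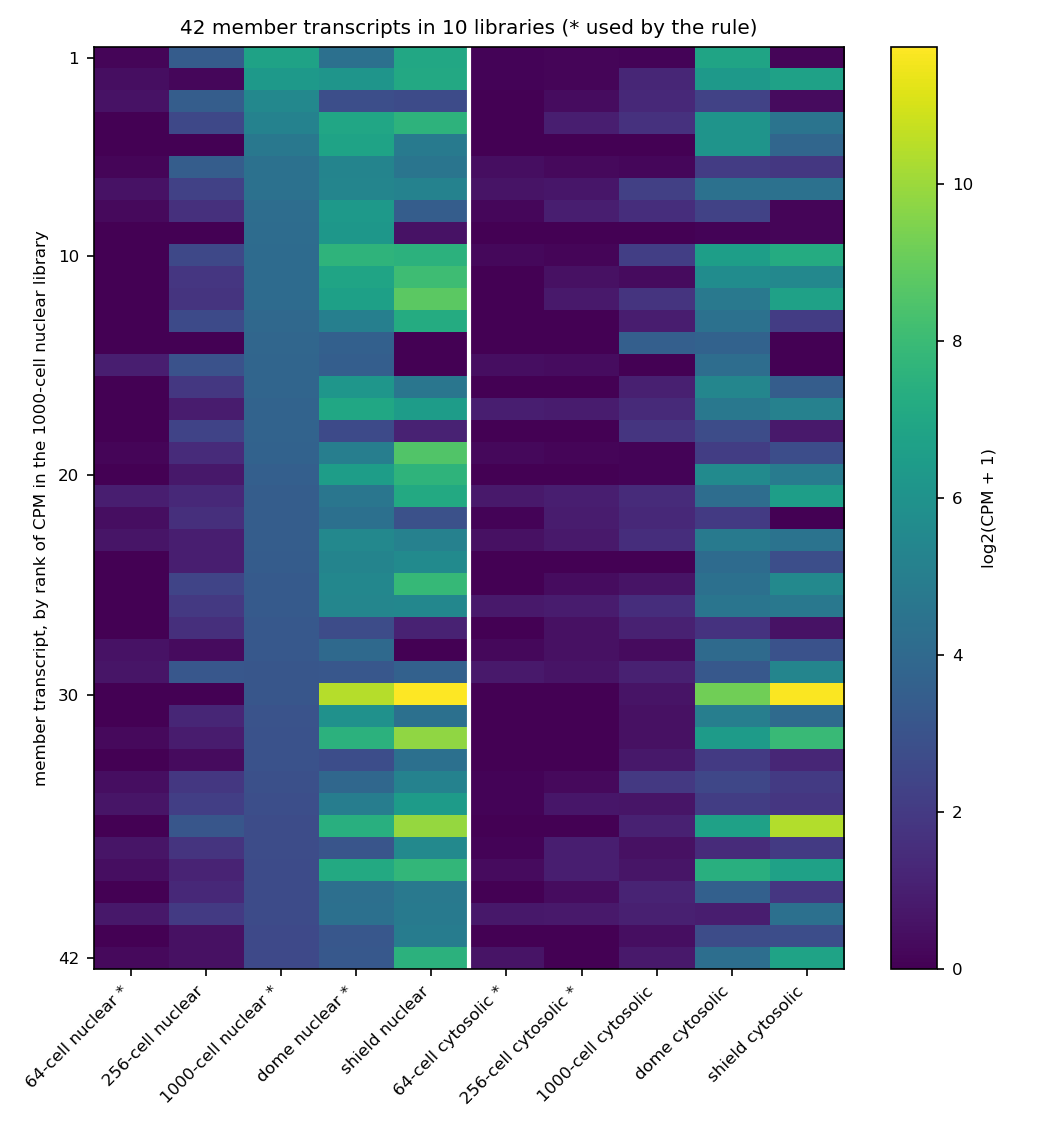
Level of each of the 42 members (rows, ordered by CPM in the nuclear 1000-cell library) in the 10 libraries (columns, nuclear on the left and cytosolic on the right), as log2(CPM + 1). Asterisks mark the 5 libraries that chose the members; among the other libraries, the cytosolic 1000-cell column stays dark for nearly all rows, while the cytosolic dome column is bright for most.

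In the 1000-cell nuclei themselves most members were under 20 CPM. Of all 16383 transcripts 33.2% reached 5 CPM in this library, as the choice asked of members, and their median was 0.392 CPM over the whole table. The members' median was 9.98 CPM, 21 lay between 5 and 10 CPM, 16 between 10 and 20 CPM, and 5 at 20 CPM or more. Together they held 0.0675% of the library's counts (95% Wilson interval 0.0657 to 0.0694%, counting error only). The highest was ENSDART00000090712 with 107 CPM (823 counts), followed by ENSDART00000146819 with 79.2 CPM (607 counts). In dome nuclei the median was 38.0 CPM, and 34 of the 42 had a higher CPM there than in 1000-cell nuclei. The order of the members at 1000 cells said little about their order later. Across the 42, log2(CPM + 1) in 1000-cell nuclei correlated with that in dome nuclei at Pearson's r = 0.113 (Spearman's rho 0.248) and with that in shield nuclei at r = -0.03 (rho -0.10). These correlations run over transcripts of shared libraries and are descriptions only. The choice also cut the levels in 1000-cell and dome nuclei at 5 CPM, and such a narrowed range can weaken a correlation.

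Many members were already detectable in nuclei 2 divisions earlier, in a library that had no part in choosing them. In nuclei of 256-cell embryos 28 of the 42 (66.7%) had at least 1 CPM and 7 had at least 5 CPM, with a median of 2.07 CPM. The 8335 transcripts low in the 3 early libraries of the rule are not a like-for-like background. Of these, 6820 had 0 counts in 1000-cell nuclei and 5342 in dome nuclei, where members needed 5 CPM. Among all 8335, 301 (3.61%) had at least 1 CPM in 256-cell nuclei and 52 (0.624%) at least 5 CPM. Of those 52, 7 were members, and 32 were under 5 CPM in nuclei at both 1000 cells and dome. The 7 are 13.5% of the 52 and 16.7% of the 42 members. As a description of the set, 28 members were thus at 1 CPM or more in 256-cell nuclei, and 14 first in 1000-cell nuclei. The split rests on few counts. The highest of the 14 had 0.998 CPM (7 counts), and the lowest of the 28 had 1.28 CPM (9 counts). That lowest member had 9 counts in the 256-cell cytosol too. Under 1 CPM does not mean absent: 13 of the 42 had 0 counts in all 3 early libraries of the rule. In the cytosol of the same stage all 42 were at or under 1 CPM by choice.

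The 2 members highest in 256-cell nuclei behaved differently afterwards. ENSDART00000145223 had 0.119, 10.1, 19.7, 38.1 and 22.5 CPM in nuclei from 64 cells to shield. In the cytosol it had 0.349, 0.212, 0.171, 3.19 and 2.75 CPM. Its nuclear values lay above its cytosolic ones from 256 cells on, at every stage. ENSDART00000121917 had 0.476, 9.98, 43.5, 6.10 and 5.42 CPM in nuclei. Its cytosolic values were 0, 0.318, 1.54, 4.05 and 0.250 CPM, so it peaked at 1000 cells in the nucleus and at dome in the cytosol. It is 1 of 5 members whose highest nuclear level was at 1000 cells.

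In the other direction, 2 members had more CPM in 256-cell than in 1000-cell nuclei. ENSDART00000141984 had 8.13 and 7.96 CPM (57 and 61 counts). ENSDART00000126479 had 7.85 and 5.61 CPM (55 and 43 counts). The 14 members under 1 CPM in 256-cell nuclei had a median of 9.72 CPM in 1000-cell nuclei, against 10.9 CPM for the 28 at or above 1 CPM. Presence at 256 cells thus went with little difference in the 1000-cell level, which chose the members. ENSDART00000146819, 1 of the 14, had 3 counts in 64-cell nuclei, 1 in 256-cell nuclei and 607 in 1000-cell nuclei.

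In the cytosol of 1000-cell embryos the members had a median of 0.982 CPM. There 21 of the 42 (50.0%) reached 1 CPM, 4 had 0 counts and 1 reached 5 CPM. Of all 16383 transcripts 43.9% reached 1 CPM in this library and 32.9% reached 5 CPM, with a median of 0.341 CPM. Of the 8335 transcripts that were low early, of which 6820 had 0 counts in 1000-cell nuclei, 2.53% reached 1 CPM. All 42 had a higher CPM in the nuclear than in the cytosolic library of that stage, with a median log2 nuclear/cytosolic ratio of 3.18. The ratio uses the library that chose them, so it is given as a description. In all, 41 were 2-fold or more higher in the nucleus and 0 in the cytosol, where 13.9% and 9.36% of the 9568 transcripts tested were. The 1 member over 5 CPM in the cytosol, ENSDART00000142452, named after its values were seen, had 13.8 CPM in nuclei and 10.8 CPM in the cytosol at 1000 cells. At dome it had 11.3 and 11.8 CPM, and at shield it had 0 counts in both fractions. It is the 1 member whose fractions differed by less than 2-fold at 1000 cells.

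**Figure D2:**
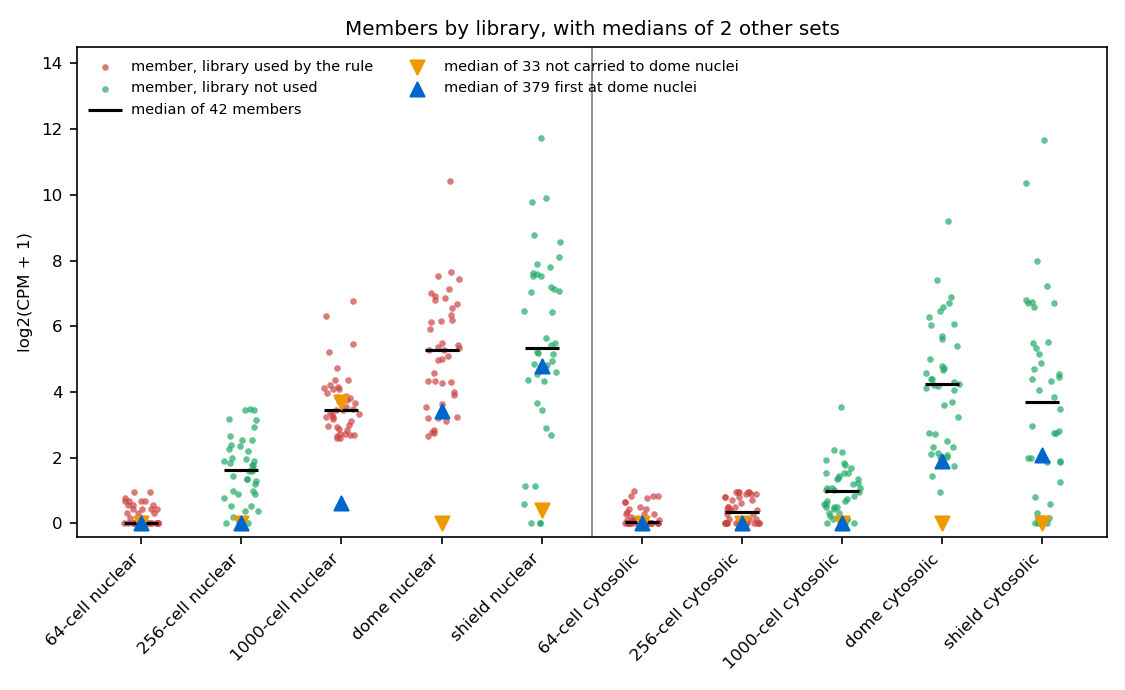
Each point is a member's log2(CPM + 1) in 1 library, red where the library chose the members and green where it did not; black bars are medians of the 42, orange and blue triangles the medians of 33 transcripts not carried to dome nuclei and of 379 first at 5 CPM in dome nuclei. In cytosolic libraries the members' median goes from 0.982 CPM at 1000 cells to 17.8 CPM at dome and 11.8 CPM at shield. These CPM use library totals. After TMM scaling for library composition, the members' median log2 change in the cytosol from dome to shield was 0.15.

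By dome the cytosol had most of the set. The median in the cytosolic library was 17.8 CPM, 40 of the 42 had at least 1 CPM and 30 at least 5 CPM. Of all transcripts 47.1% had at least 1 CPM there and 34.2% at least 5 CPM. Neither this library nor the cytosolic 1000-cell library chose the members. The choice did ask for low levels early and for 5 CPM in dome nuclei of the same lysate, so a cytosolic rise by dome is partly built in. From 1000 cells to dome, 37 of the 42 were 2-fold or more higher in the cytosol and 0 were 2-fold or more lower. Over all transcripts tested, 21.1% were 2-fold or more higher and 11.5% lower. Of the transcripts first at 5 CPM in dome nuclei, 370 were tested and 88.6% were 2-fold or more higher. The members' median log2 change was 3.79, and the median over all transcripts tested was 0.00. These are ratios of 1 library to another after TMM scaling (a correction for library composition) with a prior count of 2, and they have no replicate check.

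Members can also be sorted by the first cytosolic library in which they had 5 CPM or more. That was the 1000-cell library for 1 member, the dome library for 29 and the shield library for 2, and 10 members reached 5 CPM in no cytosolic library. Reaching 5 CPM is not first appearance. Of the 42, 21 already had at least 1 CPM in the 1000-cell cytosol, and 9 of the 10 had it in the dome cytosol. In dome nuclei the 10 had 5.72 to 80.3 CPM, with a median of 16.4 CPM. The 29 had 5.27 to 1367 CPM there, with a median of 43.7 CPM. Whether the nuclear level accounts for the split was not tested. In the cytosol at dome the 10 had 0.0863 to 4.66 CPM.

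The extreme case among the 10, ENSDART00000129853, was picked out after its values were seen. It had 0 counts in the 4 libraries of 64-cell and 256-cell embryos and in the 1000-cell cytosol, and 127 counts (16.6 CPM) in 1000-cell nuclei. In dome nuclei it had 962 counts (72.4 CPM), against 1 count (0.0863 CPM) in the dome cytosol. That is an 839-fold ratio of CPM, with a 95% counting interval of 150.3 to 33184 (exact binomial). At shield it had 3 nuclear counts and 1 cytosolic count.

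The 4 members at 100 CPM or more in the dome cytosol included the most abundant of the set. ENSDART00000007090, also named after its values were seen, had 0 counts in the 4 libraries of 64-cell and 256-cell embryos. It had 7.70 CPM in nuclei and 0.512 CPM in the cytosol at 1000 cells, 1367 and 585 CPM at dome, and 3415 and 3244 CPM at shield. Its cytosolic level at dome was 1142-fold that at 1000 cells (95% counting interval 524 to 3112, from 6776 and 6 counts). At shield it alone made up 39.1% of the members' nuclear counts and 55.4% of their cytosolic counts. Summed levels of the set therefore follow this transcript: the 42 held 0.586% of the cytosolic shield counts with it (95% Wilson interval 0.581 to 0.591%). In CPM the sum was 5859 with it and 2615 without it.

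Whether the late libraries differed from the early ones was tested across all transcripts with the 5 libraries that did not choose the members. Nuclear RNA at 256 cells and cytosolic RNA at 1000 cells were the early group. Cytosolic RNA at dome and both fractions at shield were the late group, with fraction as a term in the model. Stages stand in for replicates here, and 2 residual degrees of freedom remain. The choice of members contrasted early with late stages in other libraries. Of these, the nuclear 1000-cell and dome libraries each share a stage with a cytosolic library of this test. The cytosolic 256-cell library, held low by the choice, shares a stage with the nuclear 256-cell library of the early group. A higher level of members in the late group is thus partly built in. All transcripts tested, most of them not chosen this way, are not a like-for-like background. No transcript passed an adjusted p-value of 0.05 in edgeR's quasi-likelihood test, so 0 of 42 members were called, against a background of 0.0% (0 of 9568). At an unadjusted p under 0.05, 26 of the 42 members were higher late and 0 lower, where 10.1% of all transcripts tested were higher late. DESeq2 called 27 of the 42 members higher late at an adjusted p under 0.05, against 9.58% of the transcripts it tested. Without the cytosolic dome library, edgeR called 13 members, all higher late, against 2.67% of transcripts. Without the nuclear shield library, or with cytosolic libraries only, fewer passed the unadjusted limit, both among members and over all transcripts tested. The members' median log2 fold change, late minus early, was then 4.68 and 4.66, against 0.12 and 0.10 over all transcripts tested. With cytosolic libraries only, the early group is a lone library.

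The members' fitted changes were large but imprecise. The median log2 fold change, late minus early, was 4.32, against 0.09 over all transcripts tested, and 38 of the 42 were above 0. The member with the smallest p-value, named after its values were seen, was ENSDART00000150403. It had 1.28 CPM in 256-cell nuclei and 0.597 CPM in the 1000-cell cytosol, the early libraries. In the late libraries it had 169 CPM in the dome cytosol, 220.3 CPM in shield nuclei and 106 CPM in the shield cytosol. The fitted log2 difference was 7.78 with an SE of 0.99 (edgeR, adjusted p-value 0.301). ENSDART00000146819 had 0.143 and 1.37 CPM early and 77.2, 134 and 103 CPM late. For this member the fit gave 7.43 with an SE of 1.39 (edgeR, adjusted p-value 0.301). ENSDART00000121917 had 9.98 and 1.54 CPM early and 4.05, 5.42 and 0.250 CPM late. The fit gave -0.05 with an SE of 1.68 (edgeR, adjusted p-value 0.994).

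At shield, when neither library had been used in the choice, the set had spread into several patterns. The median was 39.1 CPM in nuclei and 11.8 CPM in the cytosol. At the limit of 5 CPM, 25 members were present in both fractions, 11 in nuclei only, 1 in the cytosol only and 5 in neither. Over all transcripts, 39.4% reached 5 CPM in nuclei and 31.9% in the cytosol, against 36 and 26 of the members. The 25 present in both had a median of 140 CPM in nuclei and 34.4 CPM in the cytosol. The 11 nuclear-only members had 5.42 to 147 CPM in nuclei, and 0 to 3.25 CPM in the cytosol. At dome the same 11 had medians of 18.9 CPM in nuclei and 3.97 CPM in the cytosol, against 68.9 and 26.9 CPM for the 25. The medians of the nuclear-only members were thus already the lower ones at dome, in both fractions.

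At shield the members' median nuclear/cytosolic ratio lay above that of all transcripts. The choice asked for 5 CPM in nuclear libraries at 1000 cells and dome, with no such minimum in the cytosol. A nuclear lean at shield may thus be partly built in, and all transcripts are not a like-for-like background. The median log2 nuclear/cytosolic ratio of the 42 was 0.79 at shield, against 0.00 over all transcripts tested. It was 0.93 at dome and 3.18 at 1000 cells, where the nuclear libraries chose the members, so its order over the stages is no finding. For the 33 transcripts that met the 1000-cell limit but not the dome limit it was 4.81 at 1000 cells (23 of them tested). At shield the median log2 ratio of these 23 was 0.00, but 10 of them (43.5%) were 2-fold or more higher in nuclei and 4 in the cytosol. Of the 33, 24 had 0 counts in the shield cytosol and 15 in shield nuclei, and such low counts give ratios near 0. With at least 50 counts in the shield libraries together, the median was 2.95 for 7 of these transcripts and 1.32 for 35 members. For transcripts first at 5 CPM in dome nuclei (370 tested), also chosen by a nuclear level, the median log2 ratio was 1.80 at shield, above that of the members. A nuclear lean at shield was thus not particular to the members. At dome 18 members were 2-fold or more higher in nuclei and 2 in the cytosol, as were 21.0% and 6.33% of all transcripts tested. At shield 20 of the 42 were 2-fold or more higher in nuclei, and 28.8% of all transcripts tested were. In the cytosol 2 members were 2-fold or more higher, against 20.9% of all. The cytosolic shield library had a TMM factor of 0.714, where the other 9 had 0.998 to 1.10. With library totals the median over all transcripts moved to 0.38, and that of the members to 1.27. The members lay above the median of all transcripts by either scaling. With 1 library for each fraction at shield, the difference was not tested.

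ENSDART00000139464 kept a wide gap between the fractions. Its nuclear levels were 0.119, 1.71, 11.7, 31.1 and 378 CPM from 64 cells to shield. Its cytosolic levels were 0.210, 0.106, 0.0854, 3.36 and 5.76 CPM. At shield the nuclear CPM was 65.7-fold the cytosolic one (95% counting interval 49.1 to 89.96). Folds of single members here are ratios of these CPM. TMM scaling would multiply a nuclear/cytosolic ratio at shield by 0.717 and a cytosolic ratio of shield to dome by 1.45. ENSDART00000141984 had the opposite balance at shield, with 11.7 CPM in nuclei and 39.3 CPM in the cytosol. That is 3.37-fold higher in the cytosol (95% counting interval 2.59 to 4.43). At dome its fractions were level, with 8.20 and 8.45 CPM. ENSDART00000104671 had 0 nuclear and 54 cytosolic counts (6.76 CPM) at shield, at least 13.3-fold higher in the cytosol when the nuclear library is set to 3 counts. At dome it too was level, with 15.1 CPM in nuclei and 15.6 CPM in the cytosol.

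**Figure D3:**
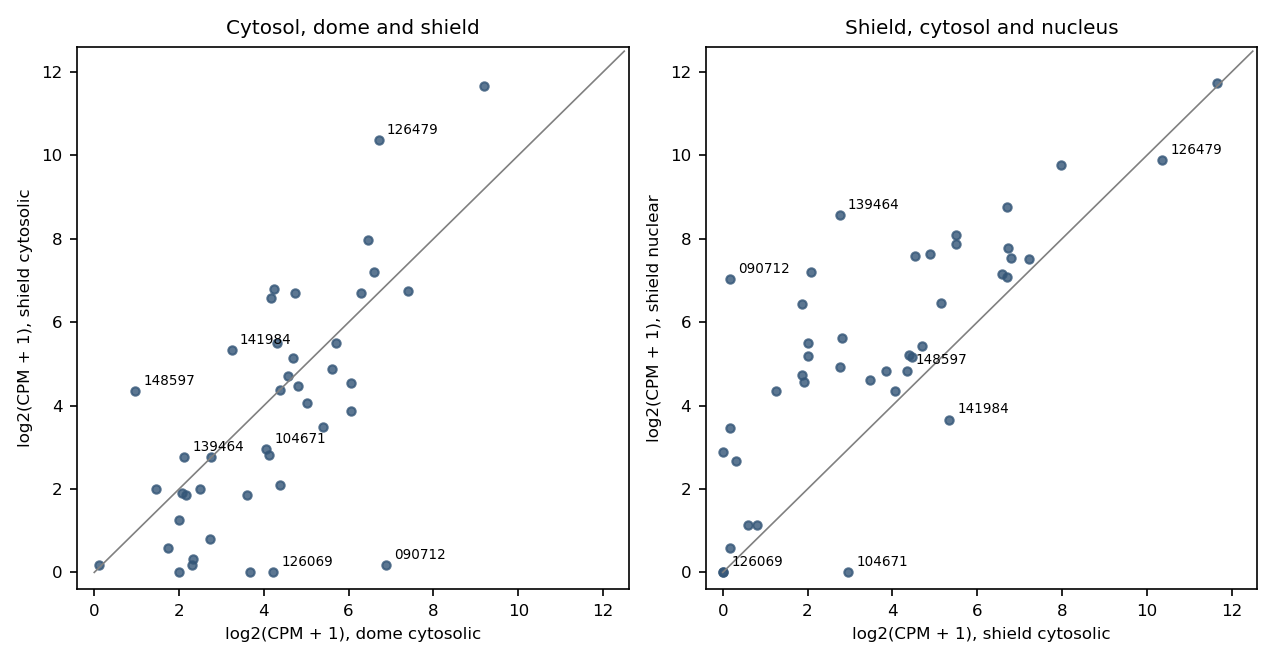
Each point is a member's log2(CPM + 1) in the libraries that did not choose it: cytosol at dome against cytosol at shield (left), and cytosol against nucleus at shield (right); the line marks equal CPM, and numbers are the last digits of the transcript IDs described in the text. On the right, 37 of the 42 points have the higher CPM in the nucleus. With TMM scaling, 33 of the 42 have the higher level there. Of the 9568 transcripts tested, 5657 were higher in the nucleus with library totals and 4619 with TMM scaling.

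From dome to shield the cytosolic levels went both ways. In all, 13 of the 42 members were 2-fold or more higher at shield and 13 were 2-fold or more lower. Over all transcripts tested, 26.1% were higher and 32.4% lower, so neither share is far from the background. The members' median log2 change was 0.15 with TMM scaling and -0.36 with library totals. Over all transcripts tested it was -0.02 and -0.51, so the members' median lay 0.17 and 0.15 above that of all transcripts. In nuclei, where the dome library chose the members, 18 were 2-fold or more higher at shield (30.4% of all transcripts) and 11 lower (32.5%). The highest nuclear CPM fell at shield for 25 members, at dome for 12 and at 1000 cells for 5. The highest cytosolic CPM, from library totals, fell at dome for 25 and at shield for 17. This order depends on the scaling. With TMM scaling 22 of the 42 were higher in the cytosol at shield than at dome, and with library totals 17 were. Over the 9568 transcripts tested, 4378 were higher with TMM scaling and 3398 with library totals.

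ENSDART00000148597 had the highest cytosolic ratio of shield to dome among members with at least 50 counts in both libraries together. It had 0.949 CPM in the cytosol at dome and 19.3 CPM at shield, a 20.3-fold ratio (95% counting interval 11.04 to 41.5, from 11 and 154 counts). In nuclei it was already at 5.35 CPM at 1000 cells, 19.04 at dome and 27.6 at shield. It had over 5 CPM in nuclei at 1000 cells, as the choice required of every member, and in the cytosol only at shield. ENSDART00000126479 had 1.11, 103 and 1317 CPM in the cytosol at 1000 cells, dome and shield. The last step was 12.7-fold (95% counting interval 12.01 to 13.5). In nuclei it had 171 CPM at dome and 949 CPM at shield, so that at shield it was 1.39-fold higher in the cytosol (95% counting interval 1.34 to 1.43).

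ENSDART00000090712, the member highest in 1000-cell nuclei, had opposite courses in the fractions. Its nuclear levels were 0.119, 9.84, 107, 19.3 and 130 CPM from 64 cells to shield. Its cytosolic levels were 0.0699, 0.106, 0.0854, 117 and 0.125 CPM, or 1, 1, 1, 1351 and 1 counts. The cytosol was thus high at dome only, between 2 stages with over 100 CPM in nuclei. From dome to shield the cytosolic CPM was 931-fold lower (95% counting interval 167 to 36812). At shield the nuclear CPM was 1043-fold the cytosolic one (95% counting interval 187 to 41231). Whether reads moved between this transcript and another model of its gene was not tested.

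Some members were not detected at shield. ENSDART00000126069 had 6.70, 13.3 and 10.5 CPM in nuclei at 256 cells, 1000 cells and dome, and 17.6 CPM (204 counts) in the dome cytosol. At shield it had 0 counts in both fractions, at least 46.9-fold lower in the cytosol when the shield library is set to 3 counts. ENSDART00000142452, described above, was the other member with 0 counts in both shield libraries. The floor of 3 counts in these libraries is 0.508 CPM in nuclei and 0.375 CPM in the cytosol. With ENSDART00000129853, 3 of the 42 were under 1 CPM in both.

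**Figure D4:**
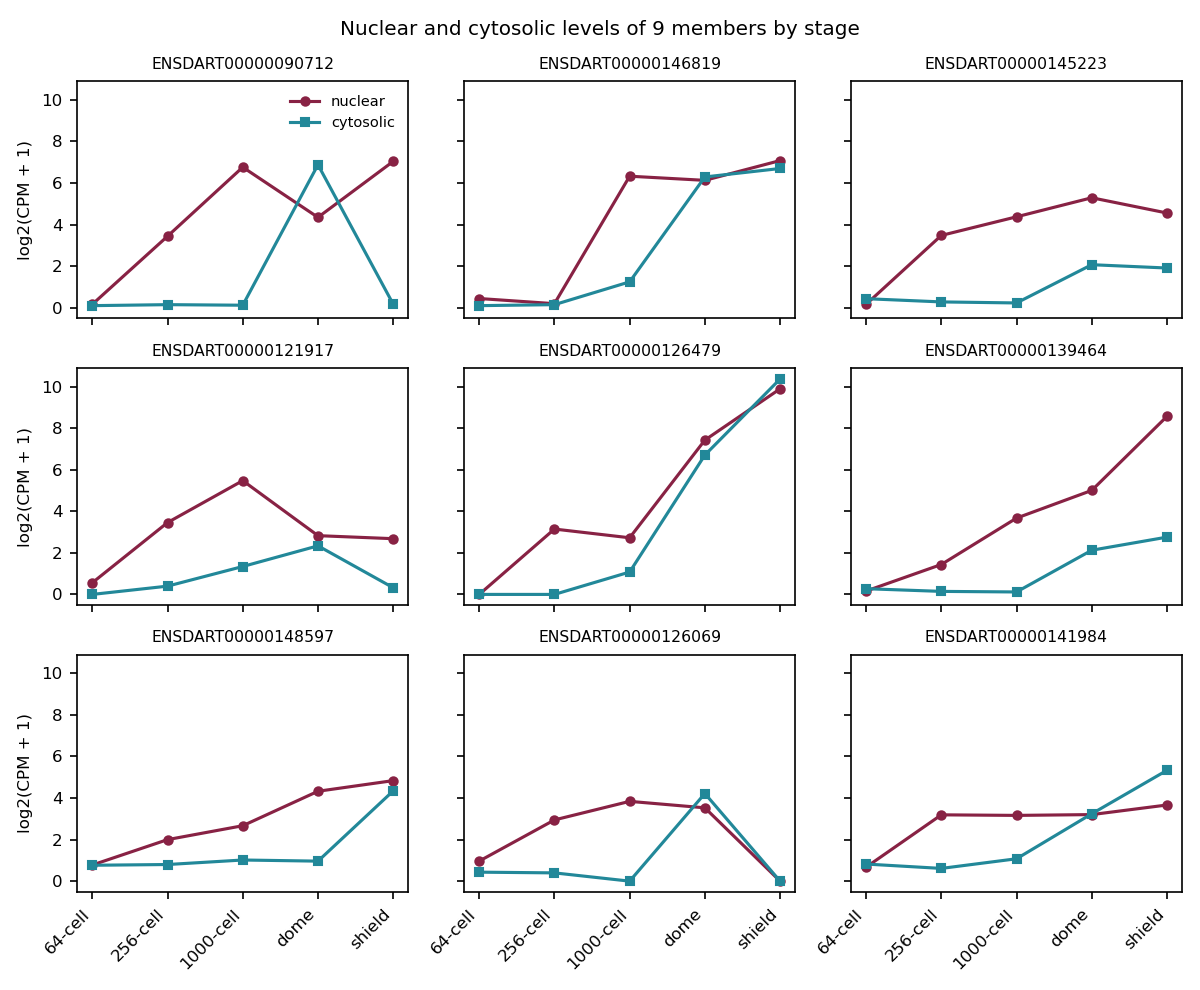
log2(CPM + 1) of 9 members at the 5 stages in the nuclear (circles) and cytosolic (squares) libraries, 1 library per point. In ENSDART00000090712 the cytosolic line is high at dome only, in ENSDART00000139464 the nuclear line lies above the cytosolic one from 256 cells on, and in ENSDART00000126069 both lines end at 0.

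The 33 transcripts that had 5 CPM or more in 1000-cell nuclei but not in dome nuclei give a comparison at the same 1000-cell limit. Their median in 1000-cell nuclei was 11.9 CPM, near the 9.98 CPM of the members. In dome nuclei, where the limit parted the 2 sets, their median was 0 CPM. The dome cytosol came from the same lysate, and shield follows dome. Lower shares in those libraries are thus partly set by the choice and are descriptions. In the libraries that did not choose the members, the shares of the 33 at 1 CPM or more were lower. At least 1 CPM was reached by 11 of the 33 (33.3%) in 256-cell nuclei, where 28 of the 42 members (66.7%) did. In the 1000-cell cytosol 9 of the 33 (27.3%) reached it, against 21 of the 42 (50.0%). In the dome cytosol the numbers were 7 of 33 (21.2%) and 40 of 42 (95.2%). In shield nuclei they were 13 of 33 (39.4%) and 38 of 42 (90.5%). At 5 CPM the order did not hold in the earlier libraries. In 256-cell nuclei 5 of the 33 (15.2%) and 7 of the 42 (16.7%) reached 5 CPM. In the 1000-cell cytosol 3 of the 33 (9.09%) and 1 of the 42 (2.38%) did. Transcripts are not replicates of a stage, so these shares carry no test.

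A second comparison is the 379 transcripts with the same low early levels that reached 5 CPM in dome nuclei but not in 1000-cell nuclei. At 256 cells 14.2% of these had at least 1 CPM in nuclei, against 66.7% of the members. In dome nuclei their median was 9.63 CPM and in the dome cytosol 2.76 CPM, against 38.0 and 17.8 CPM for the members. In shield nuclei the medians were closer, at 26.7 CPM for the 379 and 39.1 CPM for the members. In the shield cytosol they were 3.25 and 11.8 CPM. Of the 379, 370 had enough counts to be tested, and 235 of these (63.5%) were 2-fold or more higher in nuclei at shield, against 20 of the 42 members (47.6%). From 1000 cells to dome the cytosolic level was 2-fold or more higher for 328 of the 370 (88.6%) and for 37 of the 42 members (88.1%). Both sets were chosen by level, and no difference between them was tested.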

How the data were processed

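Stranded total RNA libraries were made after removal of ribosomal RNA, per the labels' protocols. The authors deposited whole-number counts per Ensembl transcript. The submitters' processing notes name Trimmomatic 0.27, STAR 2.6.0a, StringTie and the Zv9 build, without roles. The annotation release and the rule for dividing reads among transcripts are not given in the sources used here. All 10 columns were matched to libraries by stage and fraction.

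The members, limits and comparison sets were chosen with earlier results of these data known. CPM used library totals. Log2 ratios, their medians and counts past 2-fold used edgeR's TMM scaling with a prior count of 2. Folds of single transcripts are ratios of CPM, with no prior count. Tests used edgeR 4.0.16 (R 4.3.3; glmQLFit and glmQLFTest) on the 9568 transcripts that had 10 or more counts in 2 or more libraries, which kept all 42 members. Adjustment followed Benjamini and Hochberg over all transcripts tested. DESeq2 1.42.0 was an alternative. On simulated counts for these 9568 transcripts with the estimated spread (dispersion 0.933), the test called 2.0% of transcripts changed 16-fold and 24.0% of those changed 64-fold. Counting intervals are exact binomial at the 95% level and, like floors of 3 counts, cover counting error only.

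Named transcripts are the 2 highest in 256-cell and in 1000-cell nuclei, and, with at least 50 counts in the 2 libraries together, the 2 with the largest ratio in each direction for the cytosolic change from dome to shield and for the fractions at shield. Members past the test's threshold were also to be named, and there were none. Other transcripts are named where the text says so. Python 3.11.15 with pandas 2.3.3, NumPy 2.4.6, SciPy 1.17.1 and matplotlib 3.10.9 was used.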

Additional observations from a re-analysis of the deposited data

How the results depend on the processing

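In the test of late against early libraries, leaving out 1 library at a time gave 0 to 347 transcripts and 0 to 13 members called, with 371 to 2813 transcripts and 14 to 28 members at an unadjusted p under 0.05. These calls all came without the cytosolic dome library, and the lowest counts came without the nuclear shield library. Without the nuclear 256-cell library 495 transcripts had an unadjusted p under 0.05. Where this leaves a group or fraction with a lone library, it is assumed to vary like the others. DESeq2 called 1010 transcripts and 27 members, with 2184 transcripts at an unadjusted p under 0.05. With cytosolic libraries only, 328 transcripts and 13 members had one. The cause of these differences was not tested. No transcript was called with library totals, without the filter or without the fraction term. The rule gave 26 members with an early limit of 0.5 CPM and 19 with a minimum of 10 CPM in nuclei, by construction subsets of the 42. At 2 CPM, 50.0% of members were present in 256-cell nuclei and 16.7% in the 1000-cell cytosol. In all, 112 of 127 recomputed values stayed within 1.5 times the reported count or fold, or within the 95% binomial interval of the reported share or median. Some of the 112 compare 0 with 0, so the tally is no measure of robustness. The 15 that moved are counts in the test, numbers of members, and presence at 2 CPM in 256-cell nuclei and the 1000-cell cytosol. The labels give no replicate number to block on. A comparison of the fractions with stage as a block was not made, since 3 of its 5 nuclear libraries chose the members.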
